A study of Mus musculus with 75 samples.

Results

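The genes described here are the matrix proteases and protease inhibitors *Mmp2*, *Mmp7*, *Mmp14*, *Timp1*, *Timp2*, *Timp3*, *Adamts1*, *Plau* and *Plat*, taken by symbol from the deposited gene count table, in which all 9 were found among 32245 genes. In obstructed kidneys of IgG-treated mice *Mmp2*, *Mmp14*, *Timp1*, *Timp2*, *Adamts1* and *Plat* were higher than in contralateral kidneys, *Timp3* was lower and *Plau* did not pass the test. The same 6 genes were higher in obstructed kidneys of ABTAA-treated mice and of both sets of littermate controls. In obstructed kidneys of libraries labelled PbKO, 6 of the genes were lower than in the PbWT libraries and *Timp3* was higher. The calls of *Timp1*, *Adamts1* and *Timp2* held when any single library was left out, and those of *Mmp2*, *Mmp14*, *Plat* and *Timp3* did not; a fit of all 12 groups together called 0 of the 7, and *Timp2* was also lost when libraries were thinned to the shallowest (-0.59, adjusted p = 0.178).

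The study asked how activation of the endothelial receptor kinase TIE2, or loss of the growth factor PDGFB, alters the kidney's response to unilateral ureter obstruction (UUO), a mouse model of chronic kidney disease in which 1 ureter is tied; the opposite, contralateral (CL) kidney is the comparison. Whole kidneys of adult mice were sequenced in bulk 3 days after the operation, in 75 libraries that fall into 12 groups and 3 sets. In the antibody set, wild-type mice received human IgG Fc (IgG; 8 CL and 8 UUO kidneys) or ABTAA (ABT; 7 and 7), an antibody that binds angiopoietin-2 and activates TIE2. In the *Veptp* set, VeKO mice (6 CL and 8 UUO) carried a floxed *Veptp* allele, the gene of an endothelial phosphatase acting on TIE2, deleted after tamoxifen by the endothelial *Cdh5*-CreERT2 driver, and VeWT mice (7 and 8) were littermates with that driver that were not induced; the methods count fewer VeWT mice than the labels give VeWT UUO libraries, and the labels were followed. In the *Pdgfb* set, PbKO mice (4 and 4) carried floxed *Pdgfb* deleted after tamoxifen by the whole-body *Actb*-CreERT2 driver, and PbWT mice (4 and 4) were Cre-negative littermates. Of the 4 PbWT CL kidneys, 2 came from sham-operated mice, and the labels do not mark which. The labels do not state which CL and UUO kidney came from the same mouse, although some library names share a number, and the p-values measure the spread between these kidneys.

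Matrix metalloproteinases (MMPs) are zinc enzymes that are made as inactive precursors and cut collagens and other proteins of the extracellular matrix. Tissue inhibitors of metalloproteinases (TIMPs) block them by binding the active site, and ADAMTS enzymes, a related secreted family, cut matrix proteoglycans. The plasminogen activators turn plasminogen into plasmin, a serine protease that degrades fibrin and activates several MMP precursors. In the obstructed kidney this system is studied because fibrosis reflects the balance of matrix made and matrix removed.

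The libraries were shallow, with 172827 to 2341800 counts each and a median of 757897, and in 229 of 261 values *Mmp2*, *Mmp7*, *Mmp14* and CL *Timp1* rested on at most 20 counts. The library names had 2 forms: 30 contained a low line (_) and 45 did not, both forms occurred in every antibody and *Veptp* group, and no *Pdgfb* library had one. In 24 libraries *Xist* and Y-linked genes each had at least 10 counts, among them 4 of 4 PbKO UUO, 2 of 4 PbWT UUO, 2 of 4 PbWT CL and 0 of 4 PbKO CL libraries. Of these 24, 22 had names without a low line and 2 had one. Leaving them out and splitting by name form are therefore not separate checks. *Ptprb*, which encodes VEPTP, differed between VeKO and VeWT by -0.69 ± 0.33 (log2 fold change ± SE) in UUO kidneys and by -0.63 ± 0.36 in CL kidneys, and neither passed the test (adjusted p = 0.9999). *Pdgfb* had 16.8 to 25.1 CPM in PbKO CL and 4.53 to 20.1 CPM in PbWT CL kidneys, a log2 difference of 0.78 ± 0.33 (adjusted p = 1.0000) against the direction of the label, and -0.47 ± 0.21 in UUO kidneys (adjusted p = 0.125). The UUO response of *Pdgfb* in PbKO minus that in PbWT was -1.26 ± 0.39 (adjusted p = 0.046). Reads from outside the deleted part would still be counted, so these values do not check the deletion itself. In its own measurements the paper reports lower *Pdgfb* expression in PbKO mice, in UUO and CL kidneys, and lower VEPTP protein in VeKO mice. The *Pdgfb* groups are called here by their labels. Proximal tubule, loop, collecting duct and podocyte genes were detected in every group.

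Promoters from RefSeq (GRCm38.p6) were matched for 6 of the 9 genes, and 4 are printed because they belong to the 2 genes with the smallest adjusted p for UUO in IgG mice (*Timp1*, *Adamts1*), the gene that fell (*Timp3*) and a gene that was nearly absent from CL kidneys (*Mmp7*). Each run holds the 250 bases before the transcript start, 5′ to 3′ on the gene's own strand. Capitals mark matches on either strand to TGANTCA (the AP-1 site), TATAAA (the TATA box), GGGCGG (the GC box) or AGGAAG (the PEA3/ETS site). The *Timp1* run is chrX:20869916-20870165 (plus strand), *Adamts1* is chr16:85803114-85803363 (minus strand), *Timp3* is chr10:86300162-86300411 (plus strand) and *Mmp7* is chr9:7691840-7692089 (plus strand).
Timp1: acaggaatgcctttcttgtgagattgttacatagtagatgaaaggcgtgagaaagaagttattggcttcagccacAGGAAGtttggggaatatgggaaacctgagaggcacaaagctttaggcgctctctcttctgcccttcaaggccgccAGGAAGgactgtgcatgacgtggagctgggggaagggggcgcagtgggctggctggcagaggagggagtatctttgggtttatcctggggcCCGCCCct
Adamts1: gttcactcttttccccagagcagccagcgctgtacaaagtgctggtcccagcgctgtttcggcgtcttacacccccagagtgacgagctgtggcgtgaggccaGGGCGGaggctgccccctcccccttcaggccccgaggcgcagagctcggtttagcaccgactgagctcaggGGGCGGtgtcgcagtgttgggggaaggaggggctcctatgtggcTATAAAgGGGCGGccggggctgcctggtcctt
Timp3: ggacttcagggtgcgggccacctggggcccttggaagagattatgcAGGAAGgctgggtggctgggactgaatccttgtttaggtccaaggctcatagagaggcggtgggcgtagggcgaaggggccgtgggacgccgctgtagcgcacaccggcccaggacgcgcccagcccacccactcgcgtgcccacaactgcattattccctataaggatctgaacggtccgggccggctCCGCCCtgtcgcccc
Mmp7: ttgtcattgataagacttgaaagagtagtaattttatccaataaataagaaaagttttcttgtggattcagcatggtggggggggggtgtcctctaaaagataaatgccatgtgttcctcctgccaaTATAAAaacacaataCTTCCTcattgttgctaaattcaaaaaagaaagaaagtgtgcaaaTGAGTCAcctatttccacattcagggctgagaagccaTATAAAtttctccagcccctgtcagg
Counted from 250 bases before to 50 after the start, AP-1 letters occurred in 1 of the 6 promoters, that of *Mmp7*, and in 7.81% of 32851 promoters in the table. The TATA box letters occurred in 2 of 6, *Adamts1* and *Mmp7*, and in 13.6% of all promoters. The GC box letters were found in 5 of 6, all except *Mmp7*, and in 35.7% of all, and AGGAAG was found in 4 of 6 (*Mmp14*, *Mmp7*, *Timp1*, *Timp3*) and in 35.4% of all. A match describes these letters in this window and is not a measured binding site.

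*Mmp2* encodes gelatinase A, a secreted enzyme that cuts denatured and basement membrane collagen, and lies at chr8:92827290-92853421 on the plus strand. Levels are given as CPM, the count of a gene relative to the library total after TMM scaling across all libraries. In IgG mice *Mmp2* ranged from 2.03 to 10.6 CPM (median 5.23) in CL kidneys and from 10.8 to 37.1 (median 21.1) in UUO kidneys. The groups did not overlap, with a gap that was small beside their spread. The log2 fold change was 1.88 ± 0.33 (adjusted p = 2.21e-05), and in ABT mice, in which CL kidneys had 1.66 to 4.59 CPM and UUO kidneys 5.94 to 31.1, it was 1.87 ± 0.36 (adjusted p = 0.000151). In VeWT mice the CL range was 0 to 12.7 CPM and the UUO range 11.7 to 30.1, a log2 fold change of 1.96 ± 0.48 (adjusted p = 0.00304). In VeKO mice CL kidneys had 0 to 12.7 CPM and UUO kidneys 0 to 20.6, and the difference of 0.94 ± 0.54 did not pass the test (adjusted p = 0.352) and reached 1.54 without VeKO CL replicate 5. The VeKO groups overlapped over most of their range.

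The *Mmp2* values of the 4 PbWT CL kidneys were 2.26, 9.81, 4.46 and 4.22 CPM, and those of the 4 PbWT UUO kidneys were 23.4, 17.9, 11.2 and 20.4. The PbKO CL kidneys had 1.29, 0, 0 and 6.97 CPM and the PbKO UUO kidneys 13.3, 4.51, 5.15 and 11. All PbWT UUO values lay above all PbWT CL values, whereas 2 PbKO UUO kidneys lay below the highest PbKO CL kidney. UUO raised *Mmp2* by 1.81 ± 0.45 on the log2 scale in PbWT (adjusted p = 0.00237), a call that was lost when the 8 *Pdgfb* libraries with both *Xist* and Y-linked counts were left out, 4 of them PbWT and 4 the whole PbKO UUO group (1.39, adjusted p = 0.209). In PbKO the value was 1.33 ± 0.66 (adjusted p = 0.266), and without PbKO CL replicate 4 it was 3.41 and passed (0.0497).

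*Mmp14* encodes a membrane-anchored MMP that activates the precursor of MMP2 at the cell surface, and lies at chr14:54431598-54442456 on the plus strand. In IgG mice it ranged from 0 to 11.2 CPM (median 4.47) in CL kidneys and from 27.7 to 38.6 (median 30.2) in UUO kidneys. In ABT mice the ranges were 0 to 8.83 (median 4.28) and 14.2 to 46.7 (median 25.3). Neither pair of groups overlapped, and the log2 fold changes were 2.57 ± 0.34 (adjusted p = 1.88e-07) and 2.53 ± 0.35 (adjusted p = 1.03e-06). VeWT kidneys had 0 to 4.8 CPM (median 2.81) in CL and 19.5 to 44 (median 27.9) in UUO, a change of 3.33 ± 0.46 (adjusted p = 3.98e-06). VeKO kidneys had 0 to 25.3 CPM (median 3.16) in CL and 10.2 to 32.9 (median 17) in UUO, a change of 2.03 ± 0.49 (adjusted p = 0.00719), which did not pass without the *Veptp* kidneys whose library number also stands on a kidney of the other genotype (2.02, adjusted p = 0.189). The VeKO groups overlapped through CL replicate 2, at 25.3 CPM from 6 counts, while the other CL kidneys of that group had 0 to 4.66.

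*Mmp14* had 0, 11.2, 4.46 and 11.6 CPM in the PbWT CL kidneys and 32.9, 39.4, 28.4 and 43.8 in the PbWT UUO kidneys. In the libraries labelled PbKO it had 5.18, 5.07, 13.7 and 8.96 CPM in CL and 26.5, 16.9, 7.73 and 22 in UUO. The PbWT groups were far apart, and 1 PbKO UUO kidney, at 7.73 CPM, fell among the PbKO CL kidneys. The log2 fold change was 2.37 ± 0.4 in PbWT (adjusted p = 4.12e-05) and 1.05 ± 0.49 in PbKO (adjusted p = 0.223).

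*Mmp7* encodes matrilysin, a small secreted MMP of epithelial cells, and lies at chr9:7692090-7699585 on the plus strand. It had too few counts to enter the tests in any of the 3 sets, 296 counts over all libraries, and an antisense gene, *AV064505*, overlaps its exons with 82 counts. Summed over kidneys, IgG mice had 0 counts in CL and 55 in UUO, at least 21.1-fold higher against a floor of 3 counts over the CL group. ABT mice had 4 and 49 counts, a ratio of levels of 14.4 (interval 5.28 to 54.9). VeWT mice had 1 and 49 counts (ratio 40.2, 95% counting interval 6.89 to 1620), and VeKO mice had 3 and 54 counts (ratio 8.73, interval 2.83 to 43.7). The PbWT sums were 3 and 56 (ratio 8.85, interval 2.88 to 44.2), and the PbKO sums were 0 and 22, at least 5.28-fold higher. These intervals and floors cover counting error only.

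By kidney, *Mmp7* had 0, 2.8, 1.49 and 0 CPM in PbWT CL, 9.5, 11.9, 6.39 and 4.86 in PbWT UUO, 0 in each PbKO CL kidney and 6.63, 6.76, 5.15 and 6.29 in PbKO UUO. UUO and CL kidneys did not overlap in 5 of the 6 genotypes and treatments, VeKO being the exception (0 to 4.22 CPM in CL, 0 to 13.4 in UUO). When every gene with at least 1 count was fitted, *Mmp7* was higher in UUO in each of the 6, with adjusted p from 4.49e-13 in IgG to 0.0252 in VeKO. In that fit it differed in UUO kidneys by -0.22 between ABT and IgG, -0.13 between VeKO and VeWT and -0.45 between PbKO and PbWT, with adjusted p of 1, 1 and 0.635.

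**Figure D1:**
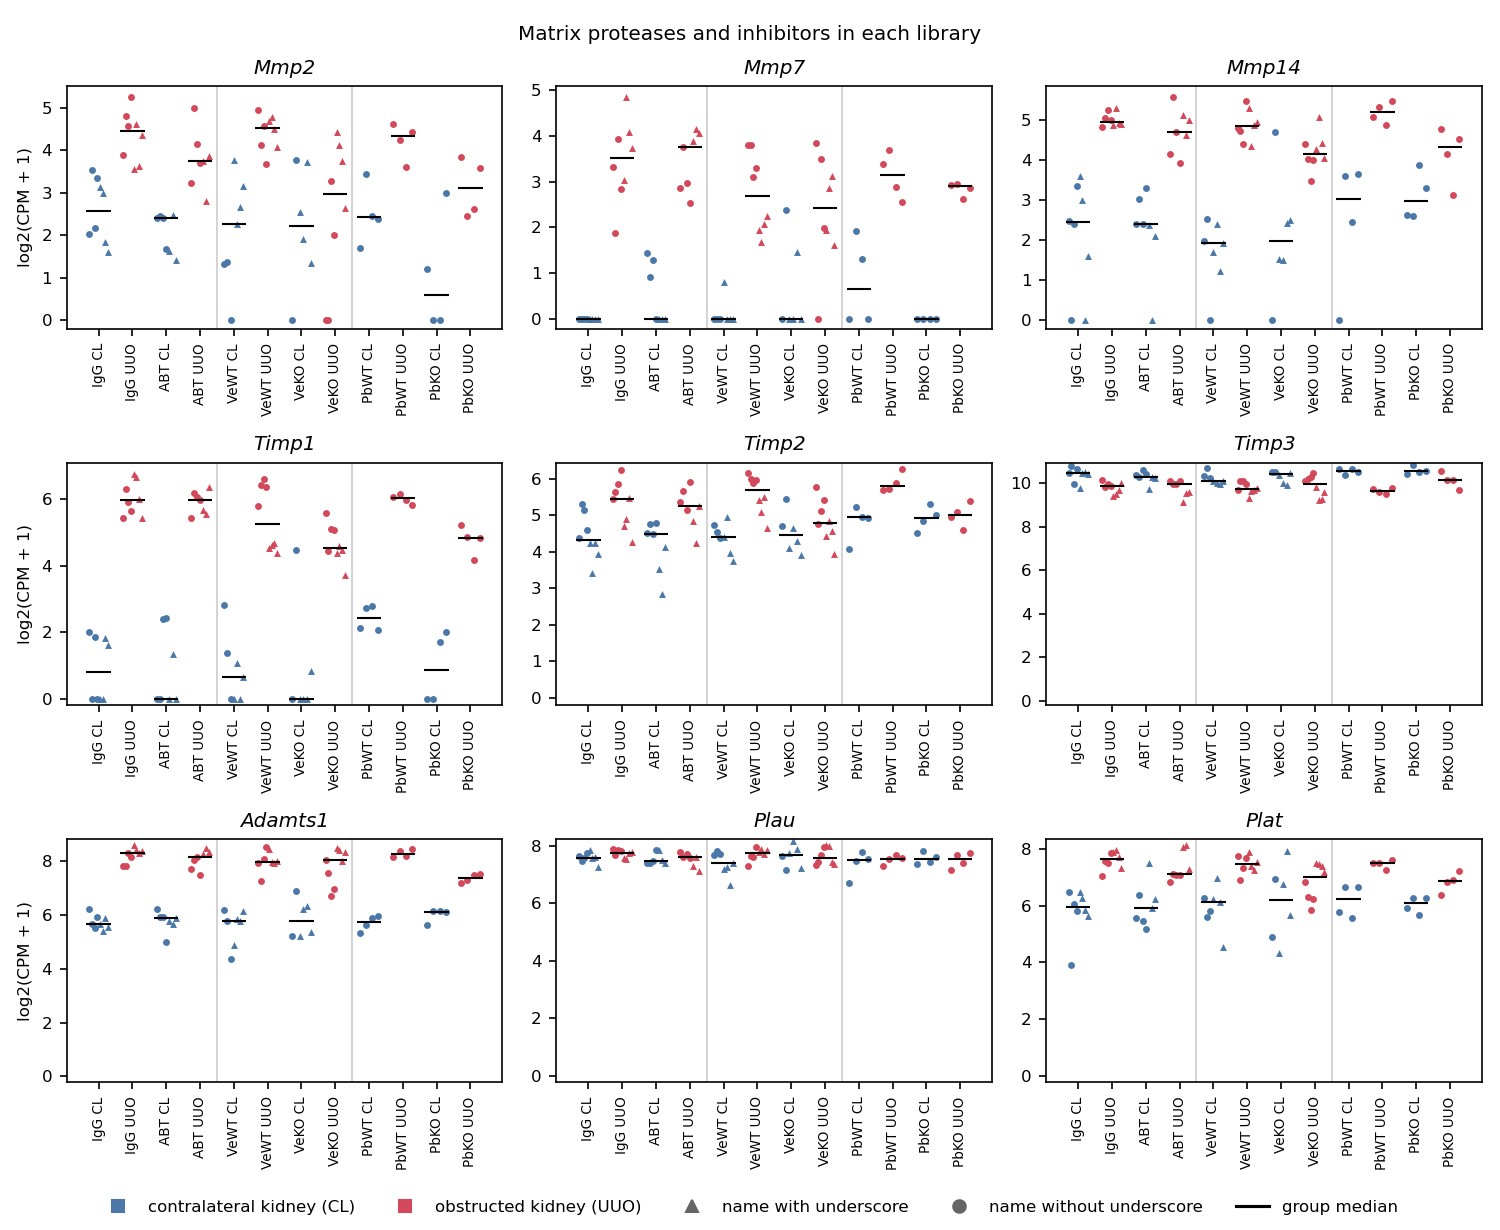
Level of each of the 9 genes in every library, as log2(CPM + 1), by group on the horizontal axis (IgG and ABT, antibody-treated wild-type mice; VeWT and VeKO, *Veptp* controls and knockout; PbWT and PbKO, *Pdgfb* controls and knockout; blue CL, red UUO). Triangles are libraries whose name has a low line, circles the others, and black lines are medians. *Timp1* and *Adamts1* separate UUO from CL in 5 of 6 pairs of groups, the VeKO pair being the exception, and *Plau* does not separate them in any. The share of all genes that separate is not given here.

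*Timp1* encodes a soluble inhibitor of most MMPs that injured tissue secretes, and lies at chrX:20870166-20874737 on the plus strand. In IgG mice it ranged from 0 to 3.05 CPM (median 1.02) in CL kidneys and from 42.6 to 108 (median 61.6) in UUO kidneys. In ABT mice it ranged from 0 to 4.42 (median 0) and from 42 to 81.7 (median 61.7). CL kidneys were at or near 0 and every UUO kidney was far above them, with log2 fold changes of 5.39 ± 0.43 (adjusted p = 4.38e-14) and 5.45 ± 0.45 (adjusted p = 1.81e-13). These fitted folds rest on few CL counts and depend on how low counts are treated.

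In VeWT mice *Timp1* ranged from 0 to 5.98 CPM (median 0.563) in CL and from 19.7 to 97.8 (median 39.6) in UUO. VeKO mice had 0 to 21.1 (median 0) in CL and 12.1 to 46.9 (median 22.3) in UUO. The highest VeKO CL value was again replicate 2, and the other 5 kidneys had at most 0.776 CPM. The log2 fold change was 5.41 ± 0.86 in VeWT (adjusted p = 1.87e-05) and 4.05 ± 0.97 in VeKO (adjusted p = 0.00579), and the difference of the responses was -1.36, with a 95% interval from -4.31 to 1.58 (adjusted p = 0.9998). Without the kidneys whose number also stands on the other genotype the VeKO response was 3.45 (adjusted p = 0.133). Without VeKO CL replicate 2 the VeKO response of *Timp1* was 6.33, above that of VeWT, and the response difference was -2.81 in libraries without a low line in the name and 0.59 in those with one.

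*Timp1* had 3.39, 5.61, 5.94 and 3.17 CPM in PbWT CL kidneys and 66.5, 71.1, 62.7 and 55.4 in PbWT UUO kidneys. The libraries labelled PbKO had 0, 0, 2.28 and 2.99 CPM in CL and 36.5, 28.2, 17.2 and 27.5 in UUO. No 2 of these 4 groups overlapped in CPM, and PbKO was the lower genotype in UUO kidneys. The CL groups rested on 3 to 4 counts per kidney in PbWT and 0 to 3 in PbKO, so their gap is not a clear separation. UUO raised *Timp1* by 3.85 ± 0.3 in PbWT (adjusted p = 1.74e-10) and 3.97 ± 0.47 in PbKO (adjusted p = 2.76e-06). The response difference was 0.12, with an interval from -0.87 to 1.11. The PbKO response ran from 3.49 to 5.11 as single libraries were left out, highest without PbKO CL replicate 4. In CL kidneys PbKO differed from PbWT by -1.44 ± 0.67, which did not pass the test across all genes (adjusted p = 1.0000) and ran from -2.59 without PbKO CL replicate 4 to -0.97 without PbKO CL replicate 1.

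*Timp2* encodes an inhibitor that also takes part in MMP14-dependent activation of MMP2, and lies at chr11:118301061-118355411 on the minus strand. Its level went from 9.77–38.9 CPM (median 18.9) to 18.3–74.2 (median 42.8) in IgG mice and from 6.11–26.5 (median 21.4) to 17.8–59.4 (median 36.9) in ABT mice. VeWT kidneys had 12.4 to 30.1 CPM (median 20.2) in CL and 24.3 to 70.2 (median 50.8) in UUO, and VeKO kidneys 14 to 42.2 (median 21.2) and 14.2 to 53.6 (median 26.7). UUO and CL kidneys overlapped in all 4 of these pairs. The log2 fold changes were 0.91 ± 0.3 in IgG (adjusted p = 0.0166), 0.99 ± 0.31 in ABT (0.0151) and 1.25 ± 0.27 in VeWT (0.0013), and 0.37 ± 0.3 in VeKO did not pass (0.563). Without the libraries with *Xist* and Y-linked counts the IgG value was 0.47 (adjusted p = 0.411) and the ABT value 1.1 (adjusted p = 0.0725), and in low-line libraries alone the IgG value was 0.93 (0.0524).

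In the *Pdgfb* set *Timp2* had 15.8, 36.4, 29.7 and 29.6 CPM in PbWT CL and 50.7, 51.4, 57.9 and 75.9 in PbWT UUO kidneys. It had 22, 27.9, 38.8 and 30.9 CPM in PbKO CL and 29.8, 32.7, 23.2 and 40.9 in PbKO UUO kidneys. The PbWT groups were separate and the PbKO groups intermingled. The log2 fold change was 1.09 ± 0.22 in PbWT (adjusted p = 0.000376) and 0.13 ± 0.26 in PbKO (adjusted p = 0.836), and the difference of -0.96, with an interval from -1.64 to -0.28, did not pass the test across all genes (adjusted p = 0.0894).

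*Timp3* encodes the TIMP that stays bound to matrix and also inhibits ADAM and ADAMTS enzymes, and lies at chr10:86300412-86349505 on the plus strand. In IgG mice it had 883 to 1784 CPM (median 1422) in CL and 678 to 1152 (median 936) in UUO kidneys, and in ABT mice 853 to 1585 (median 1270) and 561 to 1095 (median 989). The groups overlapped in both, with medians lower in UUO. The log2 fold change was -0.56 ± 0.16 in IgG (adjusted p = 0.00573) and -0.47 ± 0.17 in ABT (adjusted p = 0.0376), and the ABT call was lost without ABT CL replicate 3 or without ABT UUO replicate 5, 6 or 7 (adjusted p up to 0.089), without TMM (0.0684), by the exact test with (0.0602) or without TMM (0.132), at a mean count of 20 (0.0624), on thinning (0.0888), in libraries without a low line (0.211) and without the *Xist* and Y libraries (0.238). The IgG call was lost without TMM scaling (-0.33, adjusted p = 0.053), by the exact test without TMM (-0.31, 0.0939) and in libraries without a low line in the name (-0.47, 0.0685). In VeWT (1018 to 1667 CPM in CL, 638 to 1103 in UUO) and VeKO (968 to 1464 and 602 to 1439) the values of -0.41 ± 0.2 and -0.34 ± 0.21 did not pass (adjusted p = 0.161 and 0.38). With the name form as a covariate *Timp3* passed in both, at -0.43 (0.00765) and -0.47 (0.0104), and with the replicate block at -0.47 (0.00729) and -0.45 (0.0241).

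PbWT CL kidneys had 1637, 1344, 1617 and 1473 CPM of *Timp3* and PbWT UUO kidneys 854, 773, 728 and 875, with no overlap. PbKO CL kidneys had 1365, 1870, 1489 and 1514 CPM and PbKO UUO kidneys 1498, 1135, 1159 and 841. One PbKO UUO kidney, at 1498 CPM, stood among the CL kidneys. *Timp3* fell by 0.9 on the log2 scale in PbWT (SE 0.15, adjusted p = 4.37e-05), and -0.43 ± 0.15 in PbKO did not pass (adjusted p = 0.105).

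The *Timp3* count has a further limit. *Timp3* lies inside *Syn3*, which encodes a synaptic vesicle protein, on the opposite strand, and their exons overlap in the GENCODE vM21 annotation. Over the 75 libraries the *Syn3* count was 0.354 to 0.693 of the *Timp3* count (median 0.604). *Syn3* moved with *Timp3*, by -0.59 in IgG, -0.88 in PbWT and 0.53 between PbKO and PbWT UUO kidneys on the log2 scale. The strand setting of the counting is not given in the sources used here, and without it reads of the 2 genes cannot be told apart.

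*Adamts1* encodes a secreted enzyme that cuts the proteoglycans versican and aggrecan, and lies at chr16:85793827-85803113 on the minus strand. IgG kidneys had 41.9 to 73.3 CPM (median 50) in CL and 227 to 391 (median 317) in UUO. ABT kidneys had 30.9 to 73.4 (median 58.1) and 180 to 359 (median 290). In both, the lowest UUO kidney was above every CL kidney. The log2 fold changes were 2.55 ± 0.16 (adjusted p = 2.57e-14) and 2.33 ± 0.17 (adjusted p = 8.74e-13). VeWT kidneys went from 19.9–71.7 CPM (median 54.5) to 155–369 (median 254), a change of 2.39 ± 0.3 (adjusted p = 1.35e-06). VeKO kidneys had 36 to 118 CPM (median 57.1) in CL and 105 to 359 (median 264) in UUO, a change of 1.99 ± 0.31 (adjusted p = 0.000127). These VeKO groups overlapped.

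*Adamts1* had 39.6, 49.1, 57.9 and 61.2 CPM in PbWT CL kidneys and 284, 331, 294 and 350 in PbWT UUO kidneys. In the libraries labelled PbKO it had 49.2, 70.9, 70.7 and 67.7 CPM in CL and 146, 158, 179 and 186 in UUO. The PbKO UUO kidneys formed a narrow group between the CL kidneys and the PbWT UUO kidneys. The UUO response was 2.61 ± 0.15 on the log2 scale in PbWT (adjusted p = 9.19e-12) and 1.41 ± 0.16 in PbKO (adjusted p = 2.76e-06). *Adamts1* was the sole member whose response differed between the genotypes past the threshold, by -1.2 ± 0.22 (interval -1.63 to -0.76, adjusted p = 0.0012). With all 12 groups in 1 fit this difference was -1.22 and did not pass (0.231), and *Timp2* also passed without TMM (-1.25, 0.0235) or without PbKO UUO replicate 4 (-1.15, 0.0462).

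*Plau* encodes urokinase, the activator that acts at the cell surface through the receptor encoded by *Plaur*, and lies at chr14:20836662-20843388 on the plus strand. It ranged from 154 to 232 CPM (median 191) in IgG CL and from 186 to 236 (median 215) in IgG UUO kidneys, and its 12 group medians lay between 166 and 215. Every pair of groups adjacent in level overlapped. *Plau* was not called in any of the 6 UUO comparisons, in which its log2 fold change ran from -0.03 ± 0.18 in PbKO to 0.32 ± 0.18 in VeWT. Without TMM scaling it passed the test in IgG (0.37, adjusted p = 0.0155) and PbWT (0.51, adjusted p = 0.0204), where the median of all genes had itself moved to 0.23 and 0.41. It also passed in IgG among genes with a mean count of 20 (0.27, adjusted p = 0.0405) and in VeWT in low-line libraries alone (0.72, 0.0106), against -0.03 in the other VeWT libraries.

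*Plat* encodes tissue plasminogen activator, which acts mainly on fibrin, and lies at chr8:22757722-22782848 on the plus strand. It ranged from 14.2 to 88.5 CPM (median 61) in IgG CL and from 132 to 245 (median 201) in IgG UUO kidneys, which did not overlap. ABT kidneys had 35.3 to 182 (median 59.6) and 113 to 278 (median 137), VeWT kidneys 22.5 to 125 (median 68.9) and 118 to 238 (median 176), and VeKO kidneys 19.2 to 243 (median 78.4) and 56.8 to 182 (median 129). In these last 3 pairs the groups overlapped, most widely in VeKO, whose highest value belonged to a CL kidney. *Plat* rose by 1.65 ± 0.27 in IgG (adjusted p = 8.24e-06), 1.28 ± 0.28 in ABT (0.000669) and 1.42 ± 0.38 in VeWT (0.00734), and 0.41 ± 0.39 in VeKO did not pass (0.641). The VeWT call was lost without the numbers shared by opposite genotypes (1.19, adjusted p = 0.0677). The VeKO value ran from 0.18 to 0.97 as single libraries were left out, highest without VeKO CL replicate 5, and *Plat* passed with the replicate block (1.01, adjusted p = 0.0466).

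The PbWT CL kidneys had 54.3, 99.5, 46.1 and 100 CPM of *Plat* and the PbWT UUO kidneys 182, 178, 153 and 194. The PbKO CL kidneys had 59.5, 76, 50.2 and 75.7 CPM and the PbKO UUO kidneys 82.9, 114, 118 and 147. UUO and CL kidneys were separate in both genotypes. The log2 fold change was 1.23 ± 0.2 in PbWT (adjusted p = 2.05e-05) and 0.86 ± 0.22 in PbKO (adjusted p = 0.0172), the latter lost when PbKO CL replicate 3 or PbKO UUO replicate 4 was left out, on thinning (0.68, 0.183) and with all 12 groups in 1 fit (0.83, 0.554).

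Counted over the 8 genes tested, UUO raised 6 in IgG and in ABT mice and lowered 1, beside 16.3% of 9579 genes called higher and 18.2% called lower in IgG and 12.6% and 12.5% in ABT. In VeWT 6 genes rose and 0 fell (10% of 11916 genes higher, 8.38% lower), and in VeKO 3 rose (*Mmp14*, *Timp1*, *Adamts1*) and 0 fell (4.47% and 3.47%). In PbWT 6 rose and 1 fell (17.9% and 19.4% of 10923 genes), and in PbKO 3 rose (*Timp1*, *Adamts1*, *Plat*) and 0 fell (3.94% and 2.42%). The median log2 fold change of the 8 genes was 1.77 in IgG, 1.57 in ABT, 1.69 in VeWT, 0.68 in VeKO, 1.52 in PbWT and 0.95 in PbKO, and that of all genes tested was between -0.01 and 0.04. Without TMM scaling the share of all calls that were higher went from 47.3% to 69.6% in IgG, 50.3% to 66.7% in ABT, 54.5% to 71.8% in VeWT, 56.3% to 71.7% in VeKO, 48% to 79.4% in PbWT and 62% to 78.9% in PbKO. Unequal counts do not show that 2 genotypes differed.

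**Figure D2:**
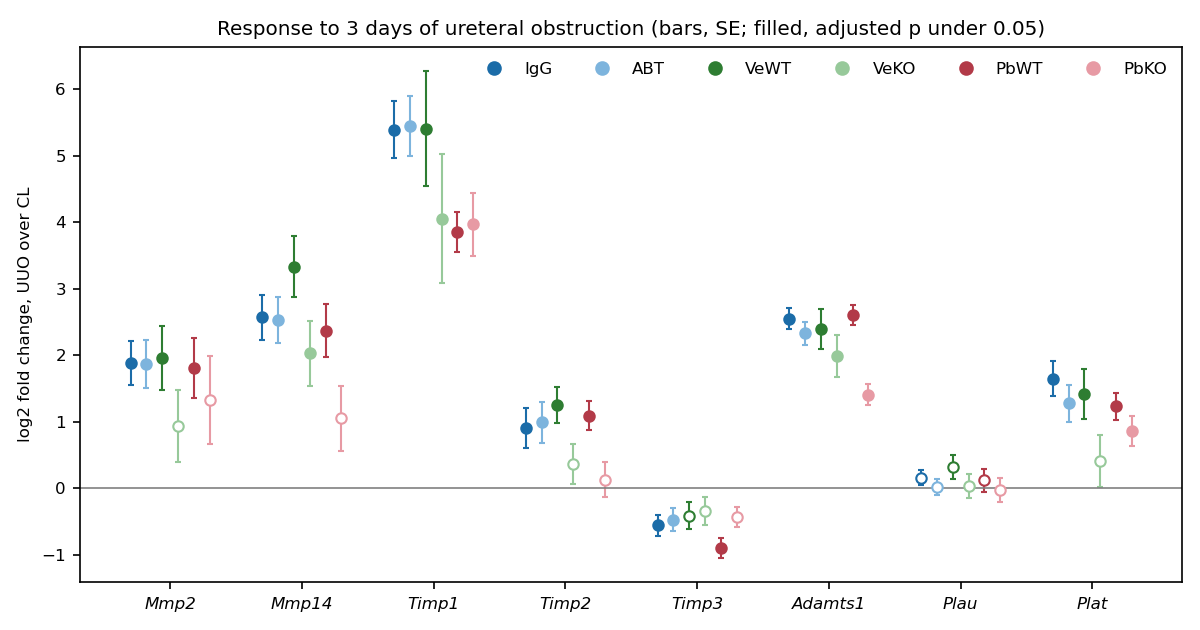
UUO response of the 8 tested genes, as log2 fold change of UUO against CL kidneys with SE bars, in mice given IgG or ABTAA (ABT), *Veptp* controls and knockout (VeWT, VeKO) and *Pdgfb* controls and knockout (PbWT, PbKO). Filled points passed the adjusted p threshold of 0.05; *Timp1* had the highest response in each group, from 3.85 to 5.45, and *Plau* stayed between -0.03 and 0.32.

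Marker genes of other cells moved with the UUO responses. Of 8 fibroblast and myofibroblast markers, all 7 that were tested were higher in IgG UUO kidneys, where their summed level was 1218 to 1875 CPM against 170 to 352 in CL kidneys. All 7 macrophage markers rose in IgG (sum 432 to 948 CPM in UUO, 134 to 240 in CL), and all 5 proximal tubule markers fell. The summed loop and collecting duct markers were 2216 to 3849 CPM in IgG UUO and 5353 to 7932 in IgG CL kidneys, with 2 of 5 called lower. Neutrophil and T and B cell markers were too low to test, with sums of at most 95.3 and 17.9 CPM in any library, and the sum of 5 fat markers ranged from 8.35 to 593 CPM. The part of these cells in the members' responses was not tested. In bulk RNA a change in the number of cells of a type and a change in RNA per cell cannot be told apart.

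In UUO kidneys ABTAA treatment gave no call among the 8 genes or among all genes tested (0%), by edgeR's quasi-likelihood test, DESeq2 and edgeR's exact test, and 0 of the 8 had an unadjusted p under 0.05, against 340 of all genes. All 8 differences were negative, from -0.53 ± 0.29 for *Mmp2* to -0.02 ± 0.17 for *Timp3*, but 4 of them turned positive in other settings, *Timp1* (0.07) and *Timp3* (0.02) in libraries without a low line in the name, *Plat* (0.15) in those with one, and *Timp2* (0.25) with the replicate block. The summed fibroblast markers were 894 to 1561 CPM in ABT and 1218 to 1875 in IgG UUO kidneys, and their part in these values was not tested. The 95% intervals ran from -1.11 to 0.04 for *Mmp2*, from -0.73 to 0.35 for *Timp1* and from -0.45 to 0.15 for *Adamts1*. The CL comparison (0%, with 0 members and 303 genes under 0.05 unadjusted) and the difference of the UUO responses (0%, 0 and 315) also gave 0 calls by each tool run. The differences of response were between -0.37 and 0.09.

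VeKO and VeWT did not differ past the threshold for any member in UUO kidneys (0% of all genes called by edgeR; DESeq2 called 1 gene and edgeR's exact test 4, none of them a member). At an unadjusted p under 0.05 there were 2 members and 426 genes. The 2 were *Timp2*, at -0.8 ± 0.26 (interval -1.32 to -0.28), and *Mmp2*, at -1.05 ± 0.43 (interval -1.9 to -0.2), both with an adjusted p of 0.9999. *Timp1* differed by -1.01 ± 0.59, *Mmp14* by -0.62 ± 0.37, *Plat* by -0.52 ± 0.36 and *Adamts1* by -0.12 ± 0.26. In libraries without a low line in the name *Timp1* was at -1.28, *Mmp14* at -1.07 and *Plat* at -1.18. With a low line they were at -0.28, -0.44 and -0.17, while *Timp2* was at -0.77 without and -0.76 with one. The median over the 8 genes was -0.57 and over all genes 0.01. The summed fibroblast markers were 374 to 1153 CPM in VeKO and 1071 to 1970 in VeWT UUO kidneys, with 0 of 8 called (edgeR), and their part in these values was not tested. In CL kidneys (0%) 0 members and 229 genes, and for the difference of responses (0%) 1 member and 324 genes, were under 0.05 unadjusted, and 0 members were called by any tool. The 1 member was *Timp2*, at -0.88 with an interval from -1.67 to -0.09 (adjusted p = 0.9998).

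Both name forms were spread over the *Veptp* groups, and they went with depth: low-line libraries had 960023 to 2341800 counts and the others 178137 to 858624. In VeWT UUO kidneys *Timp1* had 19.7 to 24.9 CPM in the 4 libraries with a low line and 54.4 to 97.8 in the 4 without. In VeKO UUO kidneys it had 12.1 to 23.2 and 20.7 to 46.9 CPM. For *Adamts1* in VeKO UUO kidneys the low-line libraries were the higher ones, at 260 to 359 against 105 to 268 CPM. The forms were fully apart in VeWT UUO kidneys for *Timp2* (24.3 to 44 with a low line, 57.7 to 70.2 CPM without) and *Mmp7* (2.23 to 3.79, 7.52 to 12.9), and in VeKO UUO kidneys for *Timp3* (602 to 918, 1112 to 1439) and *Plat* (144 to 182, 56.8 to 114). They were also apart in ABT UUO kidneys, where depth overlapped between the forms, for *Timp3* (561 to 785, 989 to 1095), *Plat* (154 to 278, 113 to 137), *Adamts1* (306 to 359, 180 to 290) and *Mmp7* (13.8 to 16.6, 4.75 to 12.4). Among CL kidneys *Timp2* was apart in IgG (9.77 to 18, 19.8 to 38.9) and ABT mice (6.11 to 16.6, 21.4 to 26.5), and some members were apart in *Veptp* CL groups. The share of all genes apart by name form is not given here. In the libraries without a low line alone, 0 of 7 members were called between VeKO UUO and CL kidneys (4 against 2 kidneys), nor was any of the 7778 genes tested there (0%), with *Adamts1* at 1.15 (adjusted p = 0.699), *Timp1* at 1.74 (0.677) and *Mmp14* at 0.22 (0.98). In those with a low line alone 4 of 8 were called, beside 21.1% of 12556 genes, *Adamts1* at 2.5 (4.81e-07), *Timp1* at 6.04 (3.49e-07), *Mmp14* at 2.73 (4.74e-05) and *Timp3* at -0.68 (0.00616). With the name form as a covariate over all *Veptp* libraries, 4 members were called in VeKO and 7 in VeWT, *Timp3* being the addition in each, and 0 between VeKO and VeWT (edgeR). The share of all genes called in that fit is not given here, so the added calls are not read as a result about the members. What the name form stands for is not stated in the labels.

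**Figure D3:**
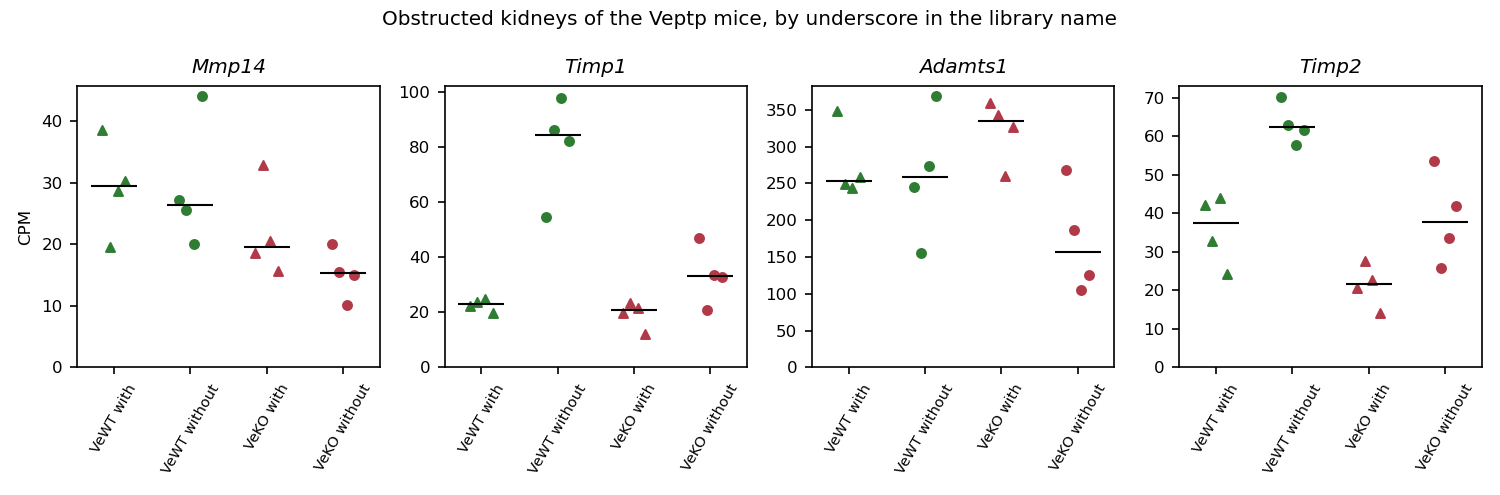
Levels of *Mmp14*, *Timp1*, *Adamts1* and *Timp2* (CPM) in UUO kidneys of *Veptp* controls (VeWT) and knockout mice (VeKO), split by whether the library name has a low line (triangles) or not (circles); each point is 1 library and black lines are medians. In VeWT the 4 low-line libraries lie below the 4 others for *Timp1*, at 19.7 to 24.9 CPM against 54.4 to 97.8.

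In UUO kidneys the libraries labelled PbKO had lower *Timp1* than PbWT by -1.32 ± 0.22 (adjusted p = 8.71e-05), lower *Adamts1* by -0.89 ± 0.14 (5.43e-05) and lower *Timp2* by -0.87 ± 0.22 (0.00652). *Mmp2* differed by -1.18 ± 0.4 (0.0408), *Mmp14* by -1.08 ± 0.34 (0.0261) and *Plat* by -0.57 ± 0.19 (0.0393), while *Timp3* was higher by 0.52 ± 0.15 (0.0202) and *Plau* was at -0.01 ± 0.17 (0.988). The groups did not overlap for *Timp1*, *Adamts1*, *Timp2*, *Mmp14* and *Plat*, and they overlapped for *Mmp2* and *Timp3*. The share of all genes whose groups did not overlap is not given here, and 31% of all genes had an unadjusted p under 0.05 by edgeR. By adjusted p, 6 of 8 members were lower, beside 6.58% of all genes, and 1 was higher, beside 12%. The median was -0.88 against -0.02 over all genes. The count of members called fell to 4 without PbKO UUO replicate 2, without PbKO UUO replicate 3 or without PbWT UUO replicate 4, to 3 without PbWT UUO replicate 2, and to 0 in a fit of all 12 groups together. In that last fit the differences kept their size, at -1.28 for *Timp1*, -0.91 for *Adamts1*, -0.89 for *Timp2*, -1.19 for *Mmp2*, -1.05 for *Mmp14*, -0.60 for *Plat* and 0.51 for *Timp3*, with larger SEs and adjusted p from 0.0585 to 0.524. Without TMM scaling the median of all genes was -0.29, and *Timp3* was at 0.22 (adjusted p = 0.221), or 0.51 above that median, and the share of all calls that were higher went from 64.7% to 20.8%.

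In CL kidneys 0 members were called between PbKO and PbWT (0% of all genes by edgeR, 0 members by DESeq2 and the exact test), with 1 member, *Timp1*, and 378 genes under 0.05 unadjusted. Among the members the difference of the UUO responses was called for *Adamts1* alone (lower; 1.9% of all genes lower and 6.66% higher). It was -1.32 for *Mmp14* (interval -2.65 to 0.02) and 0.47 for *Timp3* (0.05 to 0.9), neither past the threshold. A fit of all 12 groups together gave 0 calls among the members here too, and without TMM scaling the share of all calls that were higher went from 77.9% to 31.8%.

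Other measures moved with the PbKO label in UUO kidneys. The summed fibroblast markers were 419 to 988 CPM in PbKO and 1188 to 1604 in PbWT, with 6 of 7 tested called lower. The summed proximal tubule markers were 2426 to 4381 CPM in PbKO and 1234 to 1960 in PbWT, with 5 of 5 called higher, and 3 of 7 macrophage markers were lower. The summed loop and collecting duct markers were 3035 to 4437 CPM in PbKO and 2008 to 2360 in PbWT, with 2 of 5 called higher, and the endothelial sums were 105 to 170 and 159 to 212, with 2 of 6 called lower. Library totals were 337545 to 1249343 in PbKO and 888357 to 2049326 in PbWT UUO kidneys. *Xist* and Y-linked genes were both present in 4 of 4 PbKO and 2 of 4 PbWT UUO libraries, so the comparison could not be made without such libraries. The part of these measures in the result was not tested.

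**Figure D4:**
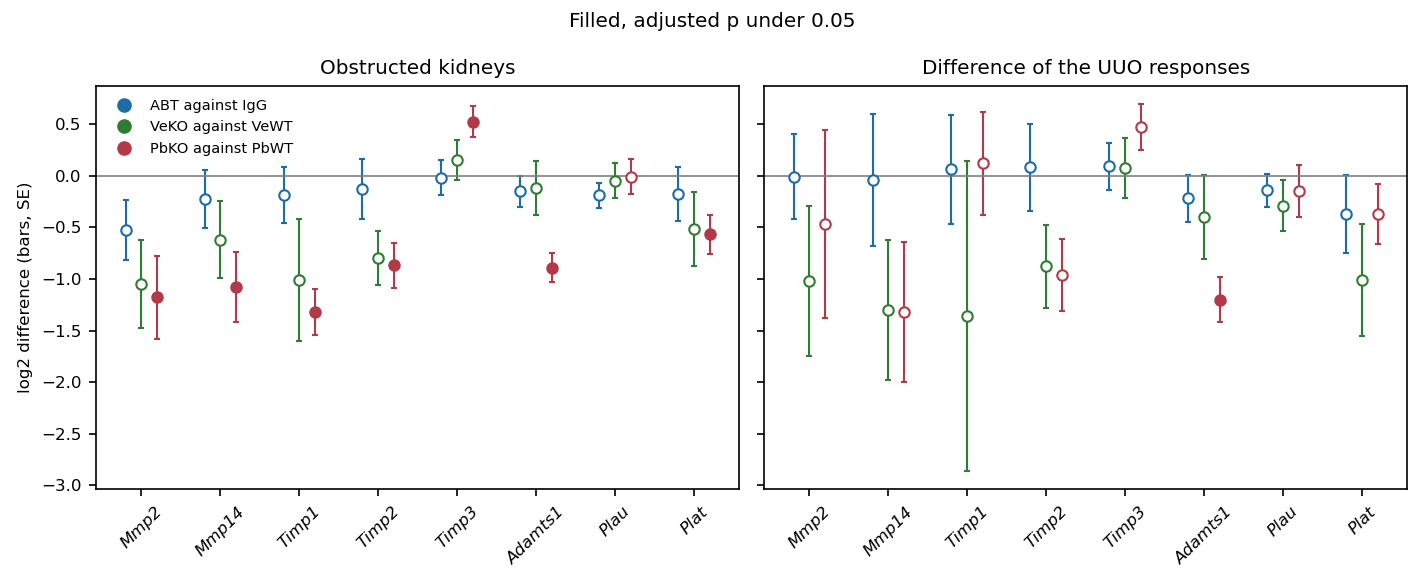
Left, log2 difference between treated or knockout and control UUO kidneys for the 8 tested genes (ABT against IgG, antibody; VeKO against VeWT, *Veptp*; PbKO against PbWT, *Pdgfb*). Right, the difference of their UUO responses; bars are SE and filled points passed the adjusted p threshold of 0.05, which 7 *Pdgfb* points did on the left and *Adamts1*, at -1.2, did on the right.

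Ordered by group median, the 6 UUO groups were above the 6 CL groups for *Mmp2*, *Mmp7*, *Mmp14*, *Timp1*, *Adamts1* and *Plat*. *Timp1* ran from 64.6 CPM in PbWT UUO through 61.7 in ABT, 61.6 in IgG, 39.6 in VeWT, 27.8 in PbKO and 22.3 in VeKO UUO to 4.5 in PbWT CL and 1.14 in PbKO CL. Its neighbours in that order overlapped except VeKO UUO with PbWT CL and PbWT CL with PbKO CL. Those 2 CL groups had at most 4 counts per kidney. For *Adamts1* the sole gap between neighbours was that from PbKO UUO (169 CPM) to PbKO CL (69.2 CPM). Neighbouring groups of the remaining genes, *Timp3* included, overlapped throughout.

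The other genes of matrix proteolysis showed how far these changes reached. From a list of 82 further genes, 35 had enough counts in the antibody set, and UUO raised 16 (45.7%) and lowered 5 (14.3%) of them in IgG mice, beside 16.3% and 18.2% of all genes. In the list named for the plasminogen system 5 of 7 rose, and this list also held genes outside that system, such as *F3*, tissue factor. The rise was led by *Plaur*, the urokinase receptor, from 0–5.61 CPM in CL to 18.6–43.1 in UUO kidneys (3.06 ± 0.3, adjusted p = 2.97e-10). *F3* (1.87 ± 0.23, 8.2e-08) and *Serpinb6a*, an intracellular serine protease inhibitor (1.27 ± 0.15, 4.93e-08), were also higher. In the ADAMTS family 5 of 6 rose, among them *Adamts2*, the procollagen N-proteinase, from 0–6.73 to 13.4–35.8 CPM (2.86 ± 0.42, 9.21e-07), and *Adamts9* (1.35 ± 0.27, 0.000132). Of the ADAM sheddases, *Adam19* (2.16 ± 0.45, 0.000174), *Adam12* (2.11 ± 0.48, 0.000568) and *Adam10* (0.58 ± 0.2, 0.0216) rose, which was 3 of 6. The *Adam10* call was lost in libraries without a low line (0.39, adjusted p = 0.308), without IgG UUO replicate 6 (0.0564) and without the *Xist* and Y libraries (0.106), and that of *Adamtsl2* (0.76 ± 0.24, 0.0116) without that replicate (0.0749), in libraries without a low line (0.33) and with all 12 groups (0.069).

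Of the remaining families, *Lrp1*, a receptor that clears proteases and their inhibitors from the cell surface, rose (1.46 ± 0.22, adjusted p = 2.24e-06), while *Bsg*, an inducer of MMPs, fell by 0.76 (0.00636) and *Pcolce*, an enhancer of procollagen processing, fell by 0.53 on the log2 scale (0.00739). The *Bsg* call was lost without the *Xist* and Y libraries (adjusted p = 0.0718), and that of *Pcolce* there (0.204), without TMM (-0.31, 0.0926), by the exact test without TMM (0.151), on thinning to the shallowest library (0.148) and in low-line libraries (-0.26, 0.3). *Bmp1*, the procollagen C-proteinase, rose (1.65 ± 0.29, 2.53e-05), and the meprins *Mep1b* and *Mep1a*, proteases of the proximal tubule brush border, fell by 1.9 (2.33e-07) and 0.99 (0.000381). Of 16 other MMP genes only 3 had enough counts in the antibody set, and 0 passed edgeR's test in IgG mice, with 1 under 0.05 unadjusted. Elsewhere *Mmp23* was called higher in UUO kidneys of ABT and VeWT mice and *Mmp3* in those of PbWT and PbKO mice, and *Mmp11* was called lower in PbWT. In the other groups the calls higher and lower were 13 and 3 of 35 in ABT (12.6% and 12.5% of all genes), 16 and 2 of 43 in VeWT (10% and 8.38%), 10 and 1 of 43 in VeKO (4.47% and 3.47%), 19 and 6 of 40 in PbWT (17.9% and 19.4%) and 6 and 1 of 40 in PbKO (3.94% and 2.42%).

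Between PbKO and PbWT UUO kidneys 13 of the 40 tested (32.5%) were lower and 5 (12.5%) higher, beside 6.58% and 12% of all genes. *Adamts2* had 3.31 to 14.9 CPM in PbKO and 19.1 to 31.7 in PbWT (-1.56 ± 0.3, adjusted p = 0.000616), and *F3* (-0.98 ± 0.21, 0.00147) and *Lrp1* (-0.86 ± 0.18, 0.00148) were also lower. *Mep1b* had 180 to 212 CPM in PbKO and 48.6 to 71.7 in PbWT (1.73 ± 0.14, 1.37e-08), and *Mep1a* was higher by 0.91 ± 0.16 (0.000312). The response difference was called for 3 of 40, *Mep1b*, *Mep1a* and *Serpinf2*, the gene of a plasmin inhibitor, each higher in PbKO (*Serpinf2* was named after its values were seen); this share of 7.5% was near the 6.66% of all genes. Between ABT and IgG and between VeKO and VeWT, 0 of these genes passed edgeR's test in UUO kidneys.

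**Figure D5:**
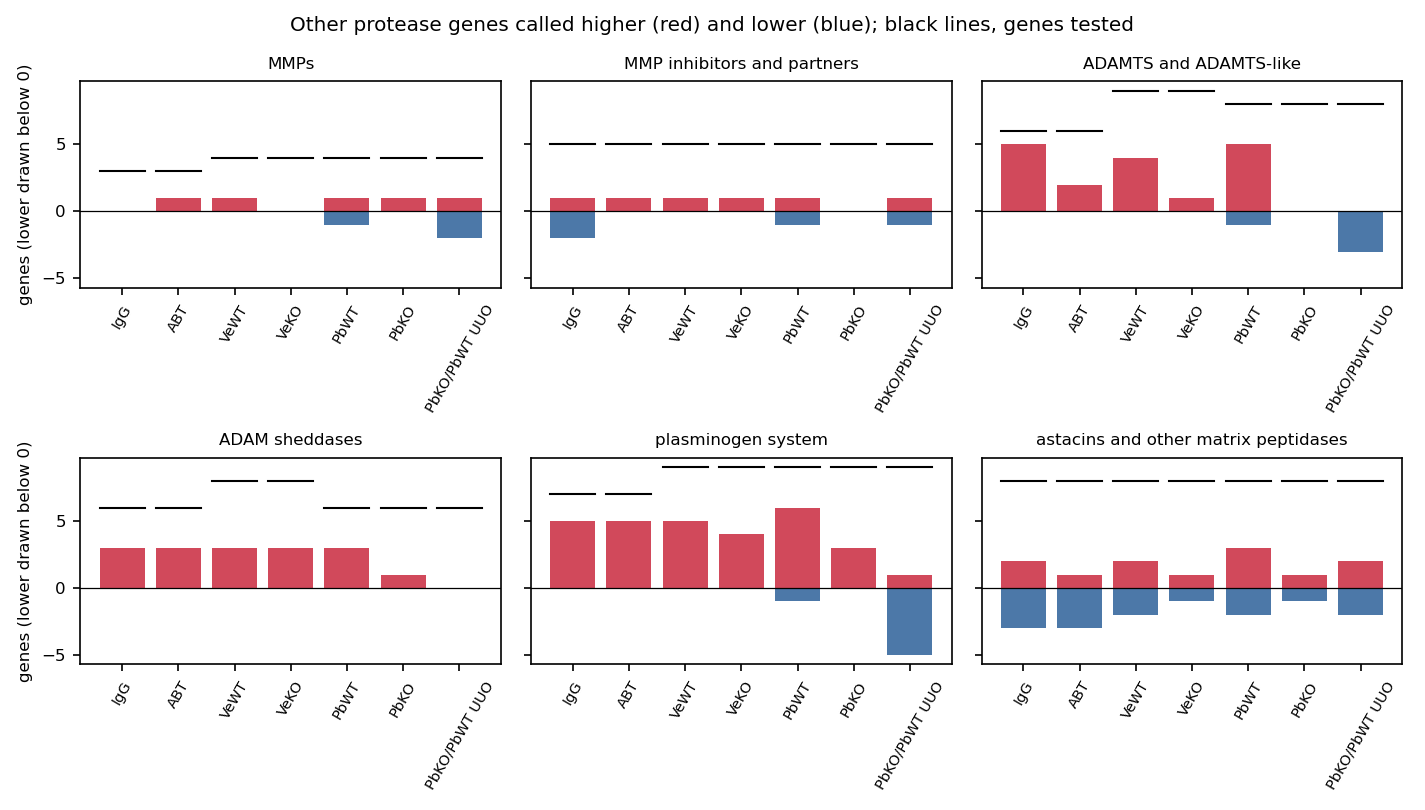
Numbers of other matrix proteolysis genes called higher (red, above 0) or lower (blue, below 0) in 6 families, for UUO against CL in each genotype or treatment (IgG, ABT, VeWT, VeKO, PbWT, PbKO) and for PbKO against PbWT in UUO kidneys; black lines give the number tested. In IgG mice 16 of 35 genes were higher and 5 lower, and between PbKO and PbWT UUO kidneys 13 of 40 were lower.

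By Pearson correlation of log2 group means over the 12 groups, among 9546 genes, the genes most like *Timp1* were *Havcr1* (0.991), the tubular injury marker KIM-1, and *Lcn2* (0.989), which encodes lipocalin-2. *Mmp7* was most like *Lcn2* and *Slc20a1* (both 0.983), *Mmp14* most like *Fblim1* (0.995) and *Fgb* (0.992), and *Adamts1* most like *Aoc1* and *Serpina3g* (both 0.992). *Plat* was most like *Lhfp* (0.992) and *Col3a1* (0.989), *Mmp2* most like *Sec24d* (0.96) and *Adgre1* (0.958), the macrophage antigen F4/80, and *Timp2* most like *Sept9* (0.969). *Timp3* was most like *Acot3* (0.975) and *Acss1* (0.974), and *Plau* had the lowest best match, *Lrp5* (0.829). The 12 points share the step from CL to UUO kidneys, so these values describe likeness and carry no test.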

How the data were processed

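Whole mouse kidneys were sequenced with Smart-seq3 libraries, each run in 4 wells whose reads were merged. The authors aligned reads with STAR 2.7.3a to mm10, removed duplicates with UMI-tools 1.1.4 and counted genes with featureCounts of Subread 1.4.6-p5, and the deposited table holds these raw counts per gene. All 75 columns were matched to samples by title, and totals of 172827 to 2341800 limit precision for low genes. Counts were tested with edgeR 4.0.16 (R 4.3.3) by the quasi-likelihood test, with TMM scaling, filterByExpr by group, 1 fit for each of the 3 sets and Benjamini-Hochberg adjustment over all genes of a fit at 0.05. Intervals of fold changes are 95% normal intervals from the SE. DESeq2 1.42.0, edgeR's exact test, other filters, scalings and subsets of libraries were tried. On simulated counts, 73.5% of genes changed by 1 on the log2 scale and 99.0% of those changed by 2 were recovered in the IgG comparison (9579 genes), 49.5% and 91.7% in VeWT (11916 genes) and 65.3% and 96.9% in PbWT (10923 genes). The members and gene lists were chosen with earlier results of these data known. The named further genes were taken by rule, up to 3 genes called in IgG UUO against CL for each family, ranked by adjusted p; for each member the 2 genes with the highest correlation were compared. In the antibody set 3 numbers in the library names were shared by an ABT CL and an ABT UUO kidney and were taken as pairs, from the values alone (correlation of deviations from group means 0.16 to 0.387, mean of other pairings -0.122), and a replicate block left its member counts at 7 and 7.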

Additional observations from a re-analysis of the deposited data

Results flagged for a closer look

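Among 106 sets of 4 to 8 kidneys examined, 1 per gene and group, 9 held a kidney whose distance from its nearest neighbour was large beside the range of the group. A chance rate of about 1 in 20 does not apply to sets of few counts, where 1 kidney with a count among zeros meets the rule. The 9 are therefore listed for a closer look and are not set against chance. In the antibody set *Mmp2* reached 31.1 CPM in ABT UUO replicate 2, with the other kidneys at 5.94 to 16.6, and *Plat* reached 182 CPM in ABT CL replicate 5, with the others at 35.3 to 81. In VeKO CL replicate 2 *Mmp14* was at 25.3 CPM (others 0 to 4.66) and *Timp1* at 21.1 CPM (others 0 to 0.776), resting on 6 and 5 counts. *Mmp14* was at 32.9 CPM in VeKO UUO replicate 6, with the others at 10.2 to 20.6. In VeWT CL kidneys *Timp1* was at 5.98 CPM in replicate 1 (others 0 to 1.6), *Timp3* at 1667 CPM in replicate 2 (others 1018 to 1297) and *Mmp7* at 0.75 CPM in replicate 4, a single count where the others had 0. *Adamts1* was the low value in PbKO CL replicate 1, at 49.2 CPM against 67.7 to 70.9.

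The UUO response of *Adamts1* differed between the *Pdgfb* genotypes by the test of that difference, by -1.20 on the log2 scale, from 2.61 in PbWT to 1.41 in PbKO. With all 12 groups in 1 fit the difference was -1.22 ± 0.41 and did not pass (adjusted p = 0.231).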

How the results depend on the processing

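Of 3319 values of single genes recomputed under other settings, 3184 kept their direction and side of the threshold, 71 lost a call, 16 gained one and 48 changed sign, and the cause was not tested except where fewer genes or libraries entered. The number of members called moved by more than 1.5 times as follows. A mean count of 20 per gene left 4 called in IgG (of 4 tested), 2 in ABT (of 4), 3 in VeWT (of 5) and 1 in VeKO (of 5), and thinning to the shallowest library left 4 in IgG (of 5), 3 in ABT (of 5), 2 in VeWT (of 4), 1 in VeKO (of 4) and 4 in PbKO against PbWT UUO kidneys (of 7). For both settings, and for the name form covariate and the replicate block, the number of all genes called is not given here. The exact test called 4 in ABT with or without TMM (of 6 tested), and the difference of *Pdgfb* responses had 2 calls without TMM. One fit of all 12 groups called 0 in PbKO against PbWT UUO and 0 for the response difference. Over all genes, that fit called 322 in place of 2034 in PbKO against PbWT UUO, 10 in place of 935 for the response difference, 125 in place of 694 in PbKO, 2501 in place of 4075 in PbWT, 1793 in place of 947 in VeKO, 2 in place of 0 in VeKO against VeWT CL and 4 in place of 0 for the *Veptp* response difference. Without TMM 3157 genes were called in PbKO against PbWT UUO, and by the exact test without TMM 3696 there, 518 in VeKO and 12 in VeKO against VeWT UUO; without the *Xist* and Y libraries 2041 were called in PbWT. In VeKO UUO against CL, libraries without a low line (_) in the name alone gave 0. Leaving out single libraries gave 3 to 7 calls in PbKO against PbWT UUO, 1 to 2 for the response difference (2 without PbKO UUO replicate 4, adding *Timp2*), 6 to 7 in IgG and in ABT, 6 in VeWT, 3 in VeKO, 7 in PbWT, 2 to 4 in PbKO, and 0 in the comparisons that had 0.

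In the *Veptp* set same-numbered CL and UUO kidneys had correlated deviations of 0.0581 to 0.426, all 8 positive, against a mean of -0.0333 for other pairings. Of the 8, 4 CL and 6 UUO kidneys correlated best with their own number, 3 numbers in both directions. Since 1 pair was under 0.1 and 4 numbers joined opposite genotypes, the numbers were not taken as pairs. With the replicate block 5 members were called in VeKO, adding *Timp3* and *Plat*, and 7 in VeWT, adding *Timp3*, and leaving out the numbers with opposite genotypes left 1 in VeKO (*Adamts1*; *Mmp14* was at 2.02 and *Timp1* at 3.45, adjusted p = 0.189 and 0.133). With the block, ABT against IgG in UUO kidneys was 0.25 for *Timp2* and 0.16 for *Timp3*, and the block changed no other call count by over 1.5 times.

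No value that changed sign passed the test. Some values outside the 48 counted above also changed sign in low-line libraries. These included the *Timp1* response difference VeKO minus VeWT (-1.36, and 0.59 in low-line libraries), the *Mmp14* response difference ABT minus IgG (-0.04, and 1.24) and *Timp1* in VeKO against VeWT CL (0.35, and -0.87). In ABT against IgG UUO kidneys *Timp1* was 0.07 and *Timp3* 0.02 in plain-named libraries, *Plat* 0.15 in low-line-named ones and *Timp2* 0.17 without libraries holding *Xist* and Y-linked counts; leaving out single libraries gave -0.26 to 0.01 for *Timp2* and -0.08 to 0.06 for *Timp3*. In VeKO against VeWT UUO kidneys *Timp3* was -0.14 and *Adamts1* 0.20 in low-line-named libraries, *Adamts1* 0.06 without the *Xist* and Y libraries and *Plau* 0.08 without numbers of opposite genotype. For UUO against CL, *Plau* in ABT was -0.02 with all 12 groups and with every gene kept, -0.20 in low-line-named libraries and -0.00 without the *Xist* and Y libraries; in VeWT -0.03 (plain names); in VeKO -0.03 (low-line names) and -0.16 (without *Xist* and Y); in PbKO 0.05 without TMM and 0.06 by the exact test without TMM. Leaving out single libraries gave *Plau* -0.04 to 0.07 in ABT, -0.05 to 0.14 in VeKO, -0.07 to 0.26 in PbWT, -0.12 to 0.05 in PbKO and -0.09 to 0.06 in PbKO against PbWT UUO, and *Timp2* -0.06 to 0.28 in PbKO.

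In PbKO against PbWT UUO kidneys, leaving out 1 of 16 libraries lost the call of *Mmp14* 4 times, *Mmp2* 5, *Plat* 6 and *Timp3* 3, and *Mmp2* was also lost with DESeq2 (adjusted p = 0.0625) and *Timp2* on thinning (-0.59, 0.178). In PbKO UUO against CL, *Mmp2* gained a call without PbKO CL replicate 4 (3.41) and *Timp3* without PbKO UUO replicate 1. PbKO UUO comparisons without the *Xist* and Y libraries were not run, since all 4 libraries hold both. Depth limits *Mmp7* and the CL values of *Timp1*, *Mmp2* and *Mmp14*, which rest on few counts.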
